A study of Rattus norvegicus with 6 samples.

Results

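Of 13685 transcribed loci in 6 rat RNA libraries, which the study describes as vascular smooth muscle cells (VSMCs), 1080 carried no Ensembl gene ID at any of their listed transcript starts or ends. Of these, 334 were selected on their measured level, of at least 1 FPKM in at least 2 libraries, and are described here, and the other 746 stayed below it. FPKM counts sequenced fragments per length of transcript and per mapped fragment. For each library the FPKM of all listed starts of a locus was added up, and likewise that of all ends, the larger sum was taken as its level, and a locus without either was set to 0. The files pair each event with a locus name beginning with XLOC, and the IDs could not be paired with gene symbols here, so the loci are given by these names.

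The paper describes VSMCs, which contract the vessel wall, grown from the aorta of male Sprague-Dawley (SD) rats to passage 3 and infected with a control virus or with a virus carrying a short hairpin RNA against SLC2A10, the gene of the glucose transporter GLUT10. There were 2 control libraries and 2 libraries for each of 2 interference sequences, called 2 and 3 here, which gave 4 knockdown libraries. The titles speak of siRNA, the extraction label of flash-frozen aorta and the design text of mice, while the genotype label reads wild type for controls and SLC2A10-/- for both sequences, and whether the RNA came from tissue or from culture could not be settled. The labels give no age, and do not say whether the replicates were separate cultures, and p-values then cover no more than the scatter of these libraries, which may be technical. SLC2A10, smooth muscle markers and markers of other cell types were not analysed here because the IDs had no symbols, and every direction below rests on the sample labels. In bulk RNA, fewer cells of a type and less RNA per cell cannot be told apart.

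An assembler joins aligned reads into transcripts and compares them with known genes. A transcript that matches none keeps only a locus name. Such loci can be long noncoding RNAs, antisense RNAs, unlisted protein-coding genes, or starts and ends of a neighbouring gene that the annotation lacks, and the expression values alone do not separate these kinds. Long noncoding RNAs such as SENCR and MYOSLID are known from human vascular cells for their part in the contractile state of smooth muscle, and no locus here was matched to either. Strand-marking was not stated for the library kit, so reads of overlapping loci on opposite strands may not be separable. The strands given below are those of the deposited files, and every count by strand rests on them.

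Across all 10648 tested loci, libraries of 1 group correlated at 0.954 to 0.969 (Pearson's r of log2(FPKM + 1) across loci, which are not independent replicates), knockdown libraries of different sequences at 0.947 to 0.970 and a control with a knockdown library at 0.899 to 0.920. Replicate 2 of sequence 3 correlated least well with the controls and with replicate 2 of sequence 2. Read counts were not given, so the depth behind each value is unknown. All levels below are FPKM, and all coordinates are those of the deposited files, for which the sources used here name no genome build.

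The 334 loci without an ID lay on every numbered chromosome and on X. Chromosome 1 held 37, chromosome 10 held 27 and chromosome 3 held 25, while chromosome 20 held 3 and chromosome 19 held 4. Their share of the tested loci ran from 0.980% on chromosome 20 to 5.19% on chromosome 15. A further 11 lay on 11 unplaced contigs, which was 3.29% of the loci without an ID against 0.175% of the 10314 loci with an ID that passed the same level. On the contigs they made up 37.9% of the tested loci. The plus strand held 204 of them (61.1%), against 52.4% of the loci with an ID and 75.3% of the loci without an ID that stayed below the level.

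The loci without an ID spanned less of the genome than those with one. The median span was 12107 bp, with quartiles of 4196 and 33940 bp, against a median of 22573 bp for loci with an ID. The shortest spanned 294 bp and the longest 594333 bp. A span under 1 kb was seen in 15 and a span over 100 kb in 26. A single transcript start was listed for 226 loci and more than 1 start for 105 (31.4%, against 31.8% of loci with an ID). More than 1 transcript end was listed for 61 (18.3%, against 9.76%), with up to 19 ends in a locus. A splicing event (a skipped exon, a retained intron or an alternative exon edge) was listed for 107 (32.0%, against 44.9%). No start was listed for 3 loci and no end for 11, and the level of those rests on the other kind of event alone.

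Distances to an annotated locus were larger for loci without an ID than for loci with one. A locus with an ID, of any level, lay on the same chromosome or contig for 325 of the 334, and the median distance to the nearest one was 14001 bp, against 5827 bp between neighbouring loci with an ID. Of the 325, 43 overlapped a locus with an ID, 85 lay within 1 kb (26.2%, against 31.8% of loci with an ID), 148 within 10 kb (45.5%, against 58.9%) and 259 within 100 kb (79.7%, against 90.1%). The other 66 were more than 100 kb away. The overlaps were 13.2% of the 325, against 15.3% of loci with an ID. Of the 43, 32 were on the opposite strand and 11 on the same strand. Of the 1579 overlapping loci with an ID, 1465 were on the opposite strand and 114 on the same strand. Same-strand overlaps thus made up a larger part among loci without an ID, and the reason was not tested. Within 1 kb, another 27 loci without an ID stood head to head with the annotated locus. In these pairs the loci lay on opposite strands with neighbouring starts and transcription running apart. The 27 were 31.8% of the 85, against 26.9% of loci with an ID within 1 kb of another. Counted over all loci with such a neighbour at any distance, 27 of 325 and 881 of 10305 are nearly equal shares. In 57 cases another locus without an ID lay within 10 kb.

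**Figure D1:**
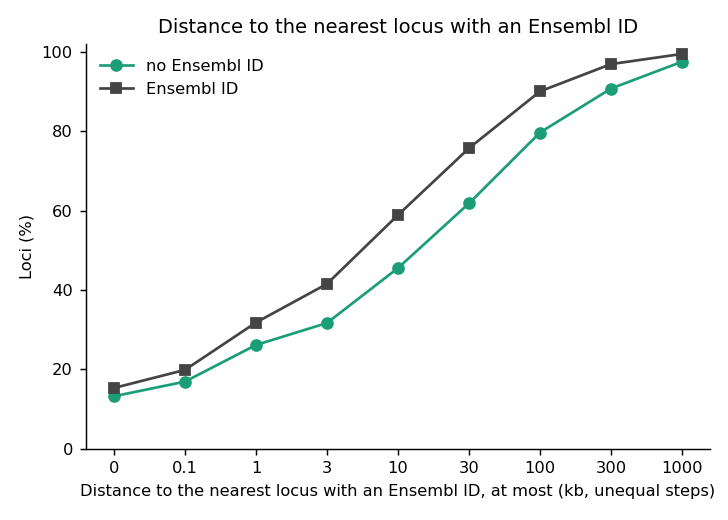
Share of loci (y axis, %) whose nearest locus with an Ensembl ID lies at most a given distance away (x axis, kb, in unequal steps), for the 325 loci without an ID that have one on the same sequence and for 10305 loci with an ID. The line of the loci without an ID lies below the other at each distance, with 45.5% against 58.9% within 10 kb.

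The levels were low. The median level per library was 2.09 to 2.31 FPKM for loci without an ID and 8.10 to 8.46 FPKM for loci with one. A mean level of at least 10 FPKM was reached by 42 (12.6%, against 44.9%) and of at least 100 FPKM by 4. Together the loci without an ID took 0.931% to 1.11% of the summed FPKM of the tested loci in a library. A single locus, XLOC_040998, gave 13.8% to 27.8% of that part.

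XLOC_040998 (chromosome 7, 3052112 to 3053907, minus strand) had the highest mean, with 457 and 681 FPKM in the controls, 909 and 678 with sequence 2 and 780.1 and 1009.6 with sequence 3. The lower control lay below every knockdown library and the other control lay among them, and the locus did not pass the test (adjusted p = 0.216 from limma). XLOC_043013 (chromosome 8, 181227 to 182331, plus strand) had 667 and 345 FPKM in the controls, 18.6 and 68.0 with sequence 2, and 0 and 256 with sequence 3. Both controls lay above every knockdown library, but the knockdown values ran from unlisted to 256 FPKM, and the adjusted p was 0.306 from limma. The values of 667 and 68.0 FPKM came from the start from 181238 to 181470. Those of 345, 18.6 and 256 came from a start from 181227 to 181679. No library listed both starts, and the end was listed only in replicate 1 of sequence 2.

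XLOC_009961, second by mean, is described with the loci that changed. XLOC_029090 (chromosome 3, 4876322 to 4882922, minus strand) had 107 and 109 FPKM in the controls and 101, 94.1, 101 and 108 in the knockdown libraries. It ended 5 bp from the end of XLOC_027728, a locus with an ID on the opposite strand that had only 1.23 to 4.02 FPKM. XLOC_035194 (chromosome 5, 155812105 to 155914478, plus strand) had 97.3 and 63.5 FPKM in the controls and 76.3 to 132 in the knockdown libraries. XLOC_007066 (chromosome 10, 103198385 to 103202059, plus strand) had 67.6 and 79.5 FPKM in the controls and 57.2 to 115 in the knockdown libraries. In all 3 the controls overlapped the knockdown range, and their adjusted p-values from limma were 0.599, 0.352 and 0.630.

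The longest loci lay at lower levels. XLOC_023997 (chromosome 2, 32857576 to 33451908, minus strand, 594333 bp) had 3.06 and 1.37 FPKM in the controls, 7.65 and 7.41 with sequence 2 and 3.58 and 4.25 with sequence 3. All 4 knockdown libraries lay above both controls, without passing the test (adjusted p = 0.0686 from limma). XLOC_041575 (chromosome 7, 104667478 to 104985613, minus strand, 318136 bp) had 23.1 and 27.9 FPKM in the controls and 18.9 to 37.1 in the knockdown libraries. XLOC_038451 (chromosome 6, 11428119 to 11738180, minus strand, 310062 bp) had 20.4 and 16.7 FPKM in the controls and 15.8 to 21.3 in the knockdown libraries. In these last loci the controls lay inside the knockdown range.

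At the threshold of the selection, which is the library with the second-highest level, the closest loci kept were XLOC_012161 at 1.004 FPKM, XLOC_020107 at 1.005 and XLOC_043504 at 1.01. The closest loci left out were XLOC_023029 at 0.9998 FPKM, XLOC_023725 at 0.995 and XLOC_048681 at 0.992. Loci on both sides of the line therefore differed by less than 0.02 FPKM. Of the loci kept, 150 (44.9%) reached 1 FPKM in all 6 libraries, against 86.6% of the loci with an ID.

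In the median, replicates of a locus without an ID lay further apart than those of an annotated locus. The levels differed too, as 29.0% of loci without an ID had a mean of 1 to 2 FPKM, against 10.2% of loci with one. The values below were not matched further by level, so a low level and the lack of an ID cannot be told apart in them. At a mean of 1 to 10 FPKM, the median absolute log2 difference between the 2 libraries of a group, over loci listed in both, was 0.27 in controls, 0.27 with sequence 2 and 0.36 with sequence 3, against 0.20, 0.18 and 0.25 for loci with an ID. All 6 libraries listed 204 of the 334 (61.1%, against 95.4%), and the other 130 were missing from at least 1. Exactly 1 of the 2 controls listed 60 (17.96%, against 1.43%), exactly 1 library of sequence 2 listed 39 (11.7%, against 1.38%) and exactly 1 library of sequence 3 listed 50 (15.0%, against 2.37%). An unlisted value therefore stood beside a listed replicate in many loci, at high levels too. XLOC_014462 (chromosome 14, 46633737 to 46684530, minus strand) had 125, 68.5 and 88.9 FPKM in replicate 2 of the controls, of sequence 2 and of sequence 3, and was unlisted in all 3 libraries numbered 1. XLOC_026285 (chromosome 20, 114865 to 121584, plus strand) had 58.5 FPKM in control replicate 1 and 140.0 in replicate 2 of sequence 3, and was unlisted in the other 4 libraries. Both loci were named after their values were seen.

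**Figure D2:**
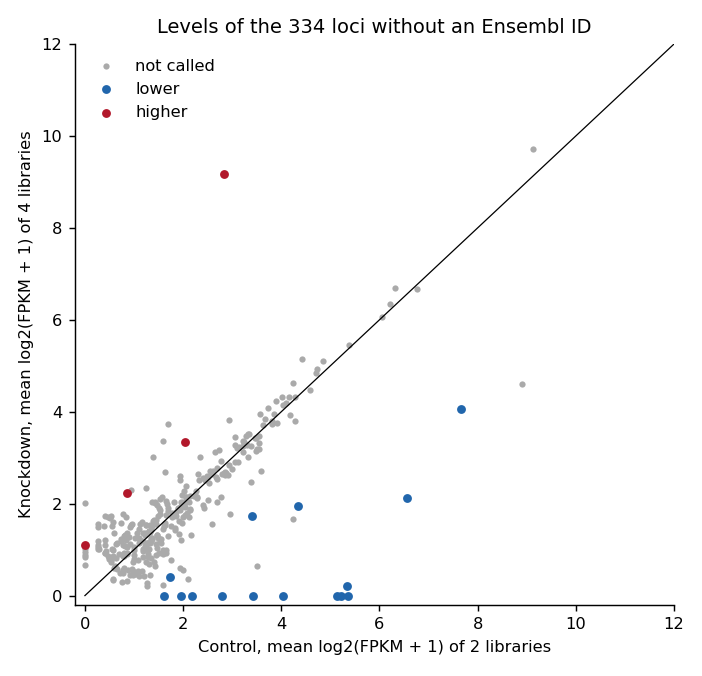
Mean log2(FPKM + 1) of the 2 control libraries (x axis) and of the 4 knockdown libraries (y axis) for the 334 loci without an ID, with those past an adjusted p of 0.05 from limma in blue (15 lower) and red (4 higher). Most loci lie near the line of equal levels, 9 of the lower loci lie at 0 in all knockdown libraries, and 1 higher locus stands far above the line.

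The knockdown libraries were compared with the controls to see which of these loci changed when SLC2A10 was targeted. At an adjusted p under 0.05 (limma on log2(FPKM + 1), Benjamini-Hochberg over all 10648 loci), 15 of the 334 were lower (4.49%) and 4 were higher (1.20%). Over all tested loci the same rule called 2.86% lower and 2.25% higher. The level filter had kept 19 of the 334 through the 2 controls alone, and 11 of the 15 lower loci were among them. A locus kept in this way had to be lower after knockdown, so the share of lower loci cannot be read against that of all loci. The p-values of those 11 describe loci kept for being high in the controls. Another 36 reached 1 FPKM in no control and were kept through the knockdown libraries alone, with XLOC_037554 of the higher loci among them. The share of higher loci therefore cannot be read against that of all loci either. At an unadjusted p under 0.05, 32 were lower (9.58%, against 7.32% of all loci) and 41 were higher (12.3%, against 14.5%). All 4 knockdown libraries lay below both controls in 44 loci (13.2%, against 11.2% of all loci) and above both in 45 (13.5%, against 22.4%). The median log2 fold change was 0.02, against 0.08 over all tested loci.

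The sums over the called loci describe loci picked for their change. Summed over the 15 lower loci, the controls held 530.0 and 510.3 FPKM and the knockdown libraries 22.0 to 38.7. Summed over the 4 higher loci, the controls held 14.5 and 7.37 FPKM and the knockdown libraries 486 to 690.2, nearly all of it from 1 locus. Of the 15 lower loci, 9 were listed in no knockdown library, and for these no fold change can be given. Only 2 of the lower and 3 of the higher loci were listed in all 6 libraries.

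**Figure D3:**
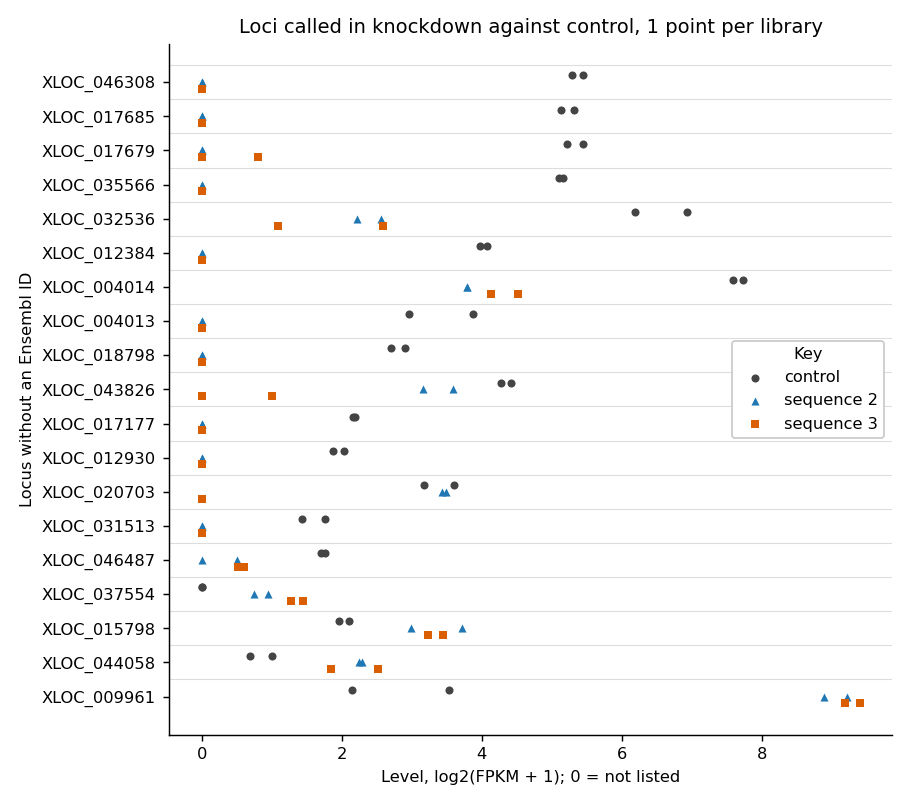
Level as log2(FPKM + 1) (x axis, 0 where a locus is not listed) of the 19 loci without an ID that passed the test in knockdown against control (y axis, 1 row per locus), with 1 point per library coloured by group. In the 15 upper rows the controls lie to the right of the knockdown points, except XLOC_020703, where the points of sequence 2 lie among the controls, and in the 4 lower rows they lie to the left.

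A group of 4 loci had 33.3 to 42.8 FPKM in each control and was absent or nearly absent from the knockdown libraries. XLOC_046308 (chromosome 9, 90966460 to 90985313, plus strand) had 38.0 and 42.5 FPKM in the controls and was listed in none of the 4 knockdown libraries (adjusted p = 2.58e-05 from limma). XLOC_035566 (chromosome 5, 56485292 to 56496637, minus strand) had 33.3 and 34.6 FPKM in the controls and was likewise listed in none (adjusted p = 2.69e-05 from limma). The controls of each locus lay within a few FPKM of each other and no knockdown library came near them.

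Both of these lay next to an annotated locus on the same strand that also fell. XLOC_046309, which began 8276 bp downstream of XLOC_046308, had 42.9 and 72.0 FPKM in the controls and 8.98, 9.98, 12.95 and 7.71 in the knockdown libraries (adjusted p = 0.00733 from limma). XLOC_035567 (ENSRNOG00000006384), which ended 1944 bp upstream of XLOC_035566, had 139.8 and 109.9 FPKM in the controls and 2.48, 5.34, 6.65 and 4.28 in the knockdown libraries (adjusted p = 0.000710 from limma). In both pairs the annotated locus kept a measurable level and the locus without an ID did not. The next loci out, such as XLOC_034556 on the other side of XLOC_035566 (11.4 and 11.2 FPKM in the controls, 12.7 to 15.6 in the knockdown libraries), did not pass the test.

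Chromosome 16 held 3 of the lower loci. XLOC_017685 (31187626 to 31221796, minus strand) had 34.1 and 38.9 FPKM in the controls and was listed in no knockdown library (adjusted p = 2.69e-05 from limma). Its start was unlisted in control replicate 2, so the value of 38.9 rests on its end alone. XLOC_017177 (31314163 to 31342102, plus strand) had 3.57 and 3.46 FPKM in the controls and was also listed in no knockdown library (adjusted p = 0.00231 from limma). Between them lay XLOC_017686 (ENSRNOG00000056947, minus strand), whose start stood head to head with that of XLOC_017177 at a distance of 78 bp. XLOC_017685 lay downstream of it on the same strand, 36041 bp away. The locus with an ID nearest to XLOC_017685 was XLOC_017684, 4132 bp away on the same strand. XLOC_017684 was unlisted in both controls, had at most 0.383 FPKM after knockdown and was not tested. XLOC_017686 had 22.1 and 17.0 FPKM in the controls and was listed in no knockdown library either (adjusted p = 0.000105 from limma). XLOC_017685, XLOC_017686 and XLOC_017177 therefore all went from listed in both controls to unlisted in all knockdown libraries.

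XLOC_017679 (29804728 to 29823707, minus strand), more than 1 Mb away on the same chromosome, had 42.8 and 36.1 FPKM in the controls, was unlisted in 3 knockdown libraries and had 0.751 FPKM in replicate 2 of sequence 3 (adjusted p = 0.000224 from limma). Its upstream neighbour on the same strand, XLOC_017680, 6973 bp away, had 15.5 and 25.04 FPKM in the controls and was listed in no knockdown library (adjusted p = 0.000266 from limma). In this pair it was the annotated locus that was never listed after knockdown. All 4 loci with 33.3 to 42.8 FPKM in the controls, and XLOC_017177, passed the test with every library left out in turn.

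On chromosome 1, 2 loci without an ID fell side by side, far from any annotated locus. XLOC_004014 (227110931 to 227114042, minus strand) had 192 and 212 FPKM in the controls, 12.8 and 12.9 with sequence 2 and 16.6 and 22.0 with sequence 3. Its mean fell 12.6-fold, from 202 ± 13.95 (SD, n = 2) to 16.1 ± 4.31 (SD, n = 4), a log2 fold change of -3.60 with a standard error of 0.13 (adjusted p = 8.81e-05 from limma). It was the locus with the highest control level among the lower ones, and it stayed listed in every library.

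Its starts did not fall alike. The start from 227113801 to 227114042 had 192 and 212 FPKM in the controls and 8.21, 6.95, 13.3 and 14.5 in the knockdown libraries. A start from 227113179 to 227113399 was listed in no control and had 2.76, 3.84, 3.30 and 5.29 FPKM in the knockdown libraries. A further start from 227112989 to 227113311 was listed only in 3 of the knockdown libraries, at 1.88 to 2.18 FPKM. The downstream starts were thus listed only where the main start was low, and no test was run on single starts.

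XLOC_004013 (227093499 to 227108496, minus strand) began 2435 bp downstream of XLOC_004014. It had 6.79 and 13.7 FPKM in the controls and was listed in no knockdown library (adjusted p = 0.00213 from limma). The nearest locus with an ID, XLOC_004009, lay 91360 bp from XLOC_004013 and had 17.1 and 22.4 FPKM in the controls and 17.6 to 22.2 in the knockdown libraries (adjusted p = 0.899 from limma). The change along this stretch was therefore measured only in loci without an ID.

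Chromosome 13 held a longer run. XLOC_012384 (91975151 to 91976717, plus strand) had 15.9 and 14.8 FPKM in the controls and was listed in no knockdown library (adjusted p = 9.15e-05 from limma). It lay inside XLOC_012928, an annotated locus on the minus strand, which had 25.01 and 29.1 FPKM in the controls and 0, 0.426, 0.806 and 0.938 in the knockdown libraries (adjusted p = 0.000153 from limma). Whether reads of the pair can be assigned by strand is unknown, so the fall of XLOC_012384 and that of XLOC_012928 cannot be told apart. XLOC_012384 had 3 starts that began at the same base and 1 end, and each of these events was listed in both controls and in no knockdown library.

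XLOC_012930 (92002235 to 92014115, minus strand), 25518 bp from XLOC_012384, had 2.67 and 3.11 FPKM in the controls and was listed in no knockdown library (adjusted p = 0.00412 from limma). Within 100 kb of XLOC_012384 the annotated XLOC_012383 had 10.46 and 10.7 FPKM in the controls and none in the knockdown libraries. At the other side XLOC_012933 fell from 83.6 and 119 FPKM to between 16.0 and 17.8. A pair of loci without an ID that stayed below the level, XLOC_012931 and XLOC_012932, was listed in 1 control each, at 0.765 and 1.67 FPKM, and in no knockdown library. All 5 tested loci of this stretch, XLOC_012384 included, passed the test as lower.

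**Figure D4:**
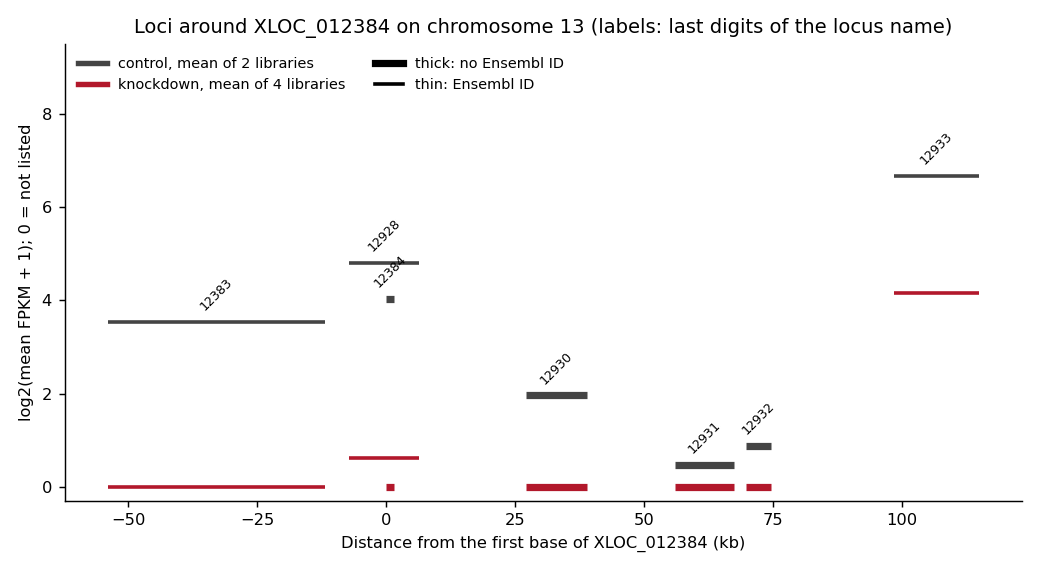
Loci around XLOC_012384 on chromosome 13, drawn from the first to the last listed base (x axis, kb from the first base of XLOC_012384) at their log2(mean FPKM + 1) (y axis) in the 2 controls (grey) and the 4 knockdown libraries (red), with thick bars for loci without an ID. Each red bar lies below the grey bar of the same locus. XLOC_012933 alone keeps a mean above 10 FPKM after knockdown, at 16.8 against 101.

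On chromosome 4, XLOC_032536 (28343132 to 28351048, minus strand) had 121 and 72.3 FPKM in the controls and 3.64, 4.92, 5.001 and 1.137 in the knockdown libraries. Its mean fell 26.3-fold, from 96.7 ± 34.5 (SD, n = 2) to 3.67 ± 1.80 (SD, n = 4), a log2 fold change of -4.45 with a standard error of 0.45 (adjusted p = 0.00426 from limma). Its downstream neighbour XLOC_032535, 18494 bp away on the same strand, had 92.8 and 71.6 FPKM in the controls and 0.986, 0.367, 1.72 and 0 in the knockdown libraries (adjusted p = 0.00137 from limma). The groups did not overlap in either locus. The controls of XLOC_032536 differed by a factor of more than 1.5, and its adjusted p from limma was 0.0918 without control replicate 1 and 0.0582 without control replicate 2.

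XLOC_031513 (chromosome 4, 31319183 to 31320807, plus strand) had 2.40 and 1.71 FPKM in the controls and was listed in no knockdown library (adjusted p = 0.0133 from limma). Without control replicate 1 or without either library of sequence 2, its adjusted p from limma was 0.0567 to 0.0650. The nearest locus with an ID, XLOC_031514 at 13163 bp, was listed in only 3 libraries and did not pass the test. XLOC_031512, 19759 bp upstream on the same strand, fell from 109.8 and 14.6 FPKM to between 0.926 and 1.52 (adjusted p = 0.0358 from limma). Its controls lay far apart from each other.

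The other lower loci had no annotated neighbour that changed. XLOC_018798 (chromosome 17, 65413741 to 65418784, plus strand) had 5.49 and 6.46 FPKM in the controls and was listed in no knockdown library (adjusted p = 0.000710 from limma). Its nearest locus with an ID was 788155 bp away, and it passed the test with every library left out in turn. XLOC_046487 (chromosome 9, 122024051 to 122067356, plus strand) had 2.27 and 2.39 FPKM in the controls and 0.422, 0, 0.428 and 0.518 in the knockdown libraries (adjusted p = 0.0300 from limma). The groups did not overlap, yet the adjusted p from limma was 0.0581 to 0.160 without either control, either library of sequence 3 or replicate 2 of sequence 2. Another locus without an ID, XLOC_046486, lay 4888 bp away on the same strand and had 7.11 and 7.65 FPKM in the controls and 4.07 to 8.74 in the knockdown libraries (adjusted p = 0.773 from limma).

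For the last 2 of the lower loci the values are given by interference sequence. XLOC_020703 (chromosome 18, 35679020 to 35908704, minus strand) had 11.2 and 8.08 FPKM in the controls and 10.2 and 9.86 with sequence 2, and was unlisted in both libraries of sequence 3. The fall was present with sequence 3 alone (adjusted p = 0.000423 from limma, against 0.903 for sequence 2), and the knockdown call over both sequences (adjusted p = 0.00359 from limma) came from those libraries. Sequence 3 also differed from sequence 2 (adjusted p = 0.00831 from limma), with no fold change to give because sequence 3 was unlisted. That call was lost without either control or either library of sequence 2, and in a fit of the 4 knockdown libraries alone (adjusted p of 0.0616 to 0.124 from limma). XLOC_020703 overlapped XLOC_020704, an annotated locus on the same strand, with 5.58 and 5.37 FPKM in the controls and 8.20, 8.31, 8.07 and 3.37 in the knockdown libraries. The latter was listed in every library, and the overlap leaves reads of the pair uncertain.

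XLOC_043826 (chromosome 8, 118420752 to 118423131, plus strand) had 18.4 and 20.4 FPKM in the controls, 7.92 and 11.04 with sequence 2, and 0 and 1.01 with sequence 3. All knockdown libraries lay below both controls, with the libraries of sequence 3 lowest (adjusted p = 0.0106 from limma for both sequences together). The difference between the sequences, -2.87 on the log2 scale, did not pass the test (adjusted p = 0.104 from limma). The call against the controls was lost without control replicate 1 (adjusted p = 0.140 from limma), control replicate 2 (0.135) or replicate 1 of sequence 2 (0.0550).

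Among the 4 higher loci, XLOC_009961 (chromosome 11, 60679758 to 60728524, minus strand) stood apart. It had 10.6 and 3.44 FPKM in the controls, 593 and 475 with sequence 2 and 584 and 674 with sequence 3. Its mean rose 83.1-fold, from 6.998 ± 5.03 (SD, n = 2) to 581 ± 81.8 (SD, n = 4), a log2 fold change of 6.33 with a standard error of 0.38 (adjusted p = 0.000496 from limma). The groups did not overlap by a wide margin, and it passed the test with every library left out in turn.

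That rise was in transcript starts and not in transcript ends. The start from 60679758 to 60680120 had 5.52 and 0 FPKM in the controls, 263 and 0 with sequence 2 and 390.1 and 338 with sequence 3. The start from 60695292 to 60695491 had 1.28 and 0 FPKM in the controls, 222 and 128 with sequence 2 and 0 and 332 with sequence 3. The start from 60695442 to 60695491, of 50 bp, had 1.71 and 0 FPKM in the controls and 105 and 345 with sequence 2, and was unlisted with sequence 3. No single start was high in all 4 knockdown libraries, and in each library the high values fell on 2 or 3 of the 4 starts.

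The first start on the minus strand, from 60728071 to 60728524, had 2.05 and 3.44 FPKM in the controls and 2.36 to 3.17 in 3 knockdown libraries, but 194 in replicate 1 of sequence 3. The 2 listed ends of the locus, from 60706079 to 60706137 and from 60707067 to 60707705, lay upstream of the other 3 starts, so no end was listed for the transcripts of those starts. The summed ends were 2.05 and 3.44 FPKM in the controls and 2.49, 2.90, 0 and 3.17 in the knockdown libraries. From ends alone the log2 fold change was -0.42 (adjusted p = 0.718 from limma). XLOC_009502, an annotated locus on the plus strand that overlapped it, had 2.86 and 0.954 FPKM in the controls and 0.759 to 4.67 in the knockdown libraries (adjusted p = 0.817 from limma).

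The other higher loci were weak. XLOC_044058 (chromosome 8, 21380504 to 21394880, minus strand) had 1.00 and 0.617 FPKM in the controls and 3.75, 3.90, 2.61 and 4.76 in the knockdown libraries, a 4.64-fold rise of the mean (adjusted p = 0.0305 from limma). XLOC_037554 (chromosome 6, 1943003 to 1944991, plus strand) was listed in no control and had 0.939, 0.683, 1.43 and 1.73 FPKM in the knockdown libraries (adjusted p = 0.0358 from limma). It reached 1 FPKM only with sequence 3, so this p-value describes a locus kept for being high after knockdown. XLOC_015798 (chromosome 15, 81445640 to 81446447, plus strand) had 2.91 and 3.31 FPKM in the controls and 12.2, 6.98, 8.42 and 9.87 in the knockdown libraries, a 3.01-fold rise of the mean (adjusted p = 0.0311 from limma). The groups did not overlap in any of the 3.

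Each of these 3 calls was lost when 1 library was left out. XLOC_044058 had an adjusted p of 0.115 to 0.199 from limma without either control or either library of sequence 2. XLOC_037554 had 0.0590 to 0.141 without any of the 6 libraries. XLOC_015798 had 0.182 to 0.250 without either control and 0.0559 to 0.0743 without either library of sequence 3. In XLOC_015798 the start carried the rise in 2 knockdown libraries, with 12.2 FPKM in replicate 1 of sequence 2 and 9.87 in replicate 2 of sequence 3, and was unlisted in the other 2. The end was high in exactly those other libraries, at 6.98 and 8.42 FPKM, and stayed at 2.90 and 2.97 where the start was high, beside 2.91 and 3.19 in the controls. From starts alone its log2 fold change was -0.02 (adjusted p = 0.997 from limma).

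Each sequence was also compared with the controls on its own. With sequence 2, 13 of the 334 loci were called lower and 1 higher (adjusted p under 0.05 from limma), where the rule called 2.45% of all tested loci lower and 1.15% higher. With sequence 3, 17 were called lower and 4 higher, where it called 2.38% and 1.77%. Both comparisons share the controls, and the limit set by the level filter holds here too. At an unadjusted p under 0.05, 31 were lower and 29 higher with sequence 2 (6.84% and 9.42% of all loci), and 31 lower and 34 higher with sequence 3 (6.56% and 15.9%). Lower with both were 12 loci, higher with both was XLOC_009961, and no locus was called in opposite directions. In sequence 3 against sequence 2, XLOC_020703 was called lower and 0 loci were called higher by limma, where the rule called 0.047% of all tested loci in each direction. Unadjusted, 15 were lower (1.52% of all loci) and 15 higher (3.93%).

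A further 5 loci passed with sequence 3 alone and not over both sequences, and were named after their values were seen. XLOC_001045 (chromosome 1, 148455401 to 148456224, plus strand) had 0 and 0.464 FPKM in the controls, was unlisted with sequence 2 and had 3.51 and 4.95 FPKM with sequence 3 (adjusted p = 0.0170 from limma). It reached 1 FPKM only with sequence 3, so its p-value describes a locus kept for being high there. It lay 1058 bp from XLOC_001044, another locus without an ID, which held steady at 40.0 to 43.1 FPKM in all 6 libraries. XLOC_021940 (chromosome 19, 19701874 to 19763117, minus strand) had 2.75 and 2.89 FPKM in the controls, 3.70 and 4.52 with sequence 2 and a higher 6.74 and 5.70 with sequence 3 (adjusted p = 0.0413 from limma). In both loci the libraries of sequence 3 were the highest.

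The other 3 were lower with sequence 3. XLOC_037688 (chromosome 6, 27858425 to 27863641, plus strand) had 2.45 and 2.34 FPKM in the controls, 1.33 and 1.49 with sequence 2, then 0.450 and 0 with sequence 3 (adjusted p = 0.0339 from limma). XLOC_022961 (chromosome 2, 86615594 to 86869171, plus strand) had 1.28 and 1.80 FPKM in the controls, 0.981 and 0.775 with sequence 2, and was unlisted with sequence 3 (adjusted p = 0.0401 from limma). It reached 1 FPKM only in the controls, so its p-value describes a locus kept for being high there. XLOC_007225 (chromosome 10, 1797224 to 1808973, minus strand) had 3.43 and 2.27 FPKM in the controls, 0.668 and 1.17 with sequence 2, then 0.484 and 0 with sequence 3 (adjusted p = 0.0494 from limma). In each the libraries of sequence 2 lay between the controls and those of sequence 3. For none of the 5 did the difference between the sequences pass the test (adjusted p from limma of 0.104 to 0.734).

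Each locus was then set beside its nearest locus with an ID. For 267 of the 334 that neighbour was tested, and in 19 cases (7.12%) it was called lower after knockdown. Of these 19 loci without an ID, 7 were called lower too, where 4.49% of the loci without an ID and 2.86% of all tested loci were called lower. All of the 7 except XLOC_032536 reached 1 FPKM in the controls alone, so the level filter kept them for being high there. Those loci had to be lower, and these shares cannot be read against each other. Seen from the other side, 13 of the 15 lower loci had a tested nearest neighbour, and it was called lower for 7, at 0 to 20803 bp. With the nearest tested locus in place of the nearest one, a choice made after seeing the data, it was 8 of 15, the addition being XLOC_017685. The nearest neighbour was called higher in 6 cases, and no locus without an ID was called higher beside any of them. These are counts over loci that share libraries and, in part, neighbours, and they carry no test.

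The other 12 loci beside a fallen neighbour were not called lower. Of these, 9 had a log2 fold change below 0 and 3 above 0. All 4 knockdown libraries lay below both controls in 2 of the 12 and above both in 2. XLOC_010860 had 17.9 and 17.8 FPKM in the controls and 0, 9.17, 0 and 8.93 in the knockdown libraries (adjusted p = 0.289 from limma). XLOC_007532 had 1.52 and 1.10 FPKM in the controls and 0, 0, 0.564 and 1.03 in the knockdown libraries (adjusted p = 0.118 from limma). In both the groups did not overlap and the test was not passed. XLOC_006717 lay 2882 bp downstream of XLOC_006716 on the same strand, which had a log2 fold change of -4.74 (adjusted p = 6.18e-05 from limma). It had 1.96 and 2.96 FPKM in the controls and 2.89, 1.45, 2.08 and 3.02 in the knockdown libraries, so the groups overlapped fully. XLOC_014745 overlapped XLOC_014135 on the opposite strand, which had a log2 fold change of -2.28, and had 0.709 and 0 FPKM in the controls and 1.94, 1.04, 3.06 and 1.73 in the knockdown libraries. XLOC_018500 overlapped XLOC_019063 on the opposite strand, which had a log2 fold change of -1.86, and had 0.898 and 0.911 FPKM in the controls and 2.42, 2.28, 1.28 and 1.79 in the knockdown libraries. In both antisense pairs the knockdown libraries lay above the controls, without passing the test (adjusted p = 0.122 and 0.115 from limma). Both XLOC_014745 and XLOC_018500 reached 1 FPKM only after knockdown, so the level filter kept them for being high there. Their direction therefore cannot be read as a result. These 5 loci were named after their values were seen.

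**Figure D5:**
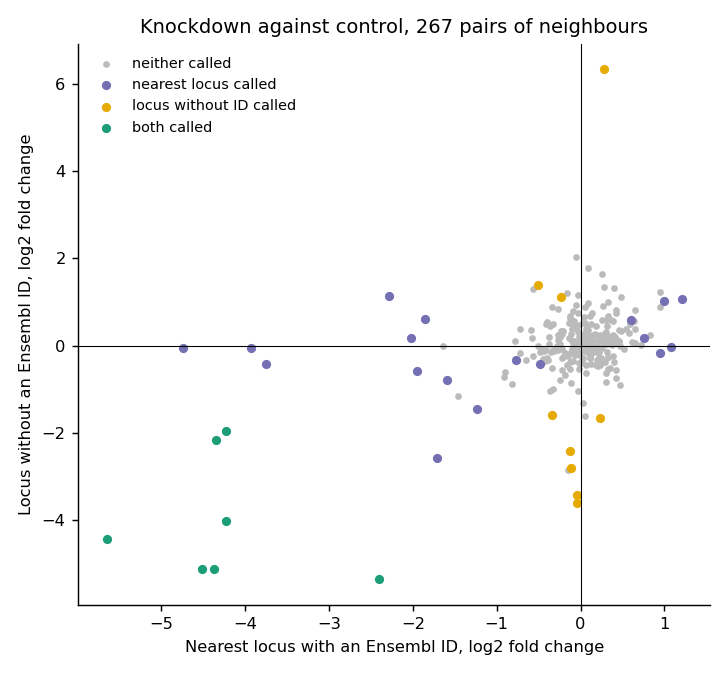
Log2 fold change of knockdown against control for 267 loci without an ID (y axis) and for the nearest locus with an ID of each (x axis), coloured by which of the pair passed an adjusted p of 0.05 from limma. The 7 pairs in which both were lower lie at the bottom left, 12 other fallen neighbours lie beside loci without an ID that were not called, and XLOC_009961 lies at the top beside a neighbour near 0.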

How the data were processed

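RNA-seq of 6 libraries was used, in 3 groups of 2 given by the sample titles. Per the labels and the submitters' processing notes, which list names without roles, the tools were bcl2fastq 2.17.1.14, Trimmomatic 0.30, HISAT2 2.0.1, SAMtools 0.1.18, HTSeq 0.6.1 and StringTie 1.0.4. The authors deposited FPKM per event (a transcript start, an end or a splicing event), not counts, so depth is unknown and no interval for counting error can be given. No source used here names the genome build, so no sequence was read by coordinates.

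Levels were built in Python 3.11.15 with pandas 2.3.3, with repeated events dropped. Loci with at least 1 FPKM in at least 2 libraries (10648) were tested in R 4.3.3 with limma 3.58.1 on log2(FPKM + 1), with 1 mean per group, an intensity trend and Benjamini-Hochberg adjustment over all 10648. The pseudocount of 1 understates the change of low loci. Distances were taken between the outermost listed bases, to loci with an ID of any level. The fit was tested on simulated data.

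The members and lists were chosen with earlier results of these data known. Named loci were all members past an adjusted p of 0.05 in knockdown against control or in sequence 3 against sequence 2. The 6 highest mean levels, the 3 longest and 3 on each side of the level threshold were named too. The nearest locus with an ID is given for part of the called loci only. Loci described in their own right outside this rule are marked. Other neighbours were named without a rule and are not marked. Examples are XLOC_031512, XLOC_012383, XLOC_012933, XLOC_034556, XLOC_046486 and XLOC_001044. The planned cell type markers and neighbour gene groups were not analysed here, because 0 IDs could be paired with symbols. Alternatives were other scalings, pseudocounts, filters and distances, starts or ends alone, each library left out, a replicate block, no trend and other thresholds.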

Additional observations from a re-analysis of the deposited data

Results flagged for a closer look

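XLOC_020703 differed between the interference sequences. It had 10.2 and 9.86 FPKM with sequence 2, beside 11.2 and 8.08 in the controls, and was unlisted in both libraries of sequence 3, with an adjusted p of 0.00831 from limma over 10648 loci. Because sequence 3 was at 0, the fitted log2 difference is set by the pseudocount and is no measured size: it was -3.46 with the pseudocount of 1, -4.40 with 0.5 and -6.66 with 0.1. The sign was the same in each of the 17 alternatives run. The adjusted p from limma was 0.0627 and 0.0674 without control replicate 1 or 2, 0.119 and 0.124 without replicate 1 or 2 of sequence 2, and 0.0616 in a fit of the 4 libraries of both sequences alone, and lay between 0.0038 and 0.0364 in the others. The sources used here do not say below which level an event is left unlisted. Groups of 2 libraries were too small for a search for single samples far from the rest.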

How the results depend on the processing

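Of the 19 loci called in knockdown against control, 11 were called in every alternative that tested them, and 2 changed sign in 1 alternative each, namely XLOC_009961 with summed ends only (-0.42) and XLOC_015798 with summed starts only (-0.016). Of the 19, 12 were still called without control replicate 1, 13 without control replicate 2, 15 without either library of sequence 2, 16 without either of sequence 3, and 16 with a pseudocount of 0.1. The tested loci were the same 10648 in each of these. The 15 lower loci became 2 among loci listed in all 6 libraries, since only 2 of them are so listed, and 32 at an unadjusted p under 0.05. The 4 higher loci became 2 with a minimum of 5 FPKM, 2 with starts only, 2 with ends only, 1 at an adjusted p under 0.01 and 41 unadjusted. All of these are counts, and the loci counted can differ between alternatives. The calls lost with 1 library left out are given with each locus above. For sequence 2, the 13 lower became 2 among loci listed in all 6 libraries and 31 unadjusted, and the 1 higher became 2 after quantile normalization, 0 with ends only, 3 without a trend, 3 among loci listed in all 6, 29 unadjusted, 2 with the 4 libraries compared alone, and 1 to 3 with 1 library left out. For sequence 3, the 17 lower became 11 with a minimum of 5 FPKM, 2 among loci listed in all 6 and 31 unadjusted, and the 4 higher became 2 with starts only, 1 at an adjusted p under 0.01, 34 unadjusted, 2 with the 4 libraries compared alone, and 1 to 4 with 1 library left out. For sequence 3 against sequence 2, the 1 lower became 0 among loci listed in all 6, 15 unadjusted and 0 with the 4 libraries compared alone, and 0 to 2 with 1 library left out, and the 0 higher became 15 unadjusted. The 148 loci within 10 kb of a locus with an ID were 85 within 1 kb and 231 within 50 kb. Where no cause is stated, the cause was not tested.

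Whether the replicate numbers pair the libraries could not be settled. The deviations of same-numbered libraries from their group means correlated at -0.06 (controls and sequence 2), 0.18 (controls and sequence 3) and -0.08 (sequence 2 and sequence 3) across loci. Values over all loci cannot decide this for single loci. XLOC_014462, for example, was unlisted in every library numbered 1 and listed in every library numbered 2. With a replicate block, 15 of the 19 called loci were still called, the higher loci of knockdown against control were 1, and those of sequence 3 against control were 2. FPKM without read counts limits how firmly any low level can be stated.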
